A study of Homo sapiens with 24 samples.

Results

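The cytosolic heat shock chaperones followed here are the HSP70 genes HSPA1A, HSPA1B, HSPA2 and HSPA8, the HSP90 genes HSP90AA1 and HSP90AB1, the HSP110 gene HSPH1, the J-domain gene DNAJB1, the small heat shock gene HSPB1 and the co-chaperone gene BAG3. These 10 genes were chosen by name, with earlier results of these data known. Each was found by its Entrez identifier among the 28395 gene identifiers of both deposited count tables. The tables hold 24 libraries of 3′ RNA-seq from 2 established human myeloma lines, MM1.S and JJN3, both of which the labels call wild type in genotype. Panobinostat was given at 50 nM and CX-5461 at 500 nM, each alone or in combination, beside a vehicle group, and all treatments lasted 24 hours. Each of the 8 groups has 3 libraries. CX-5461 is an inhibitor of RNA polymerase I transcription that also binds G-quadruplex DNA, and panobinostat is an inhibitor of histone deacetylases. The labels do not say whether the libraries of a group came from separate cultures, so the p-values measure the spread between these libraries, which may be technical. Each line is a single line, so the many ways in which MM1.S and JJN3 differ cannot be told apart.

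Cytosolic chaperones bind unfolded or partly folded proteins. HSP70 works in cycles of ATP hydrolysis that J-domain proteins such as DNAJB1 start and that nucleotide exchange factors such as HSPH1 and BAG3 reset, while HSP90 acts later, on kinases, hormone receptors and other clients. Small heat shock proteins such as HSPB1 hold unfolded clients without ATP. The heat shock factor HSF1 raises many of these genes when unfolded protein accumulates, through heat shock elements, which are inverted repeats of a short GAA unit. Plasma cells and myeloma cells make large amounts of secreted protein and are known to lean on this machinery. HDAC6, one of the deacetylases that panobinostat inhibits, acts on HSP90 itself.

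The heat shock elements of the members are shown here because HSF1 acts on many chaperone genes through them. Not every member had a match, and whether the elements bear on the members' responses was not tested. They were searched in the RefSeq promoter table of assembly GRCh38.p14, in windows of 300 bases that run from 250 bases before to 50 bases after each annotated start, as 2-unit elements, GAANNTTC or TTCNNGAA, each of which is its own reverse complement, and as 3-unit elements, GAANNTTCNNGAA or TTCNNGAANNTTC, which are reverse complements of each other and always contain a 2-unit element. All 10 members matched the table, with 15 windows. A 2-unit element was found in 8 of the 15 windows, those of 7 members, and a 3-unit element in 3 of the 15, while 13.5% of all 35116 windows held a 2-unit element and 0.490% held a 3-unit element. Each stretch below is on the gene's own strand, 5′ to 3′, and lies wholly upstream of the start, with the element in capitals. Where a window held a 3-unit element, only 3-unit elements are shown, so 1 separate 2-unit match of HSP90AA1 is left out, as is 1 of DNAJB1 in the window of another start.
HSPA1A, chr6:31815425-31815456, plus strand: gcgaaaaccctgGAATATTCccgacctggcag
HSPA1B, chr6:31827621-31827652, plus strand: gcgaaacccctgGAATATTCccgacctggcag
HSPA8, chr11:123062342-123062378, minus strand: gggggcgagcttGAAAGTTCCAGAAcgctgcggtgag
HSPA8, chr11:123062167-123062203, minus strand: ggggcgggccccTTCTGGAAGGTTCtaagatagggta
HSP90AA1, chr14:102087108-102087144, minus strand: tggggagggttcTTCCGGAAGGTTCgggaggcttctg
HSP90AB1, chr6:44247766-44247802, plus strand: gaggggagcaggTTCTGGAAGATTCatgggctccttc
HSP90AB1, chr6:44247819-44247855, plus strand: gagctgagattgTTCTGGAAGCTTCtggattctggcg
DNAJB1, chr19:14518455-14518486, minus strand: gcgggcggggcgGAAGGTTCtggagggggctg
DNAJB1, chr19:14518425-14518456, minus strand: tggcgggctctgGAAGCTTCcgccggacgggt
HSPB1, chr7:76302479-76302510, plus strand: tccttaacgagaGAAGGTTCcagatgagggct

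The 3-unit elements are those of HSPA8, HSP90AA1 and HSP90AB1. The element of HSP90AA1 begins 88 bases upstream of the annotated start, those of HSPA8 begin 230 and 55 bases upstream, and those of HSP90AB1 begin 165 and 112 bases upstream. The printed 2-unit elements of DNAJB1 begin 77 and 47 bases upstream and that of HSPB1 begins 182 bases upstream. No such letters occur in the windows of HSPA2, HSPH1 and BAG3. A match is a description of the sequence and no evidence of binding.

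Library depth ran from 4751893 to 7305069 gene counts. Values below are CPM, a gene's counts scaled to a common total of gene counts per library, and fold changes are log2 estimates ± SE from edgeR's quasi-likelihood test, scaled by the trimmed mean of M values (TMM). A gene is called changed where its Benjamini-Hochberg adjusted p, over all genes tested, is under 0.05. In JJN3 the libraries numbered 2 stood apart from the others on the second principal component, so the values without them are given where leaving them out changed a member's call, an alternative added after seeing the data. The summed level of 10 plasma cell markers was 8514 to 8984 CPM in MM1.S vehicle libraries and 4076 to 5085 CPM in JJN3 vehicle libraries, and the summed T cell markers reached at most 3.04 CPM in any library, with CD3D at 0. Some of the shifts in markers of other cell kinds are given beside the drug with which they were seen. Because these are bulk RNA samples, fewer cells of a kind and less RNA per cell cannot be told apart.

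HSPA1A and HSPA1B, which encode the strongly stress-inducible HSP70 proteins, were listed at 0 counts in all 24 libraries, and so no response to either drug could be measured for them. With 138095214 counts in all, 0 counts allow a pooled level of up to 0.0217 CPM, and 3 counts in a single library correspond to 0.411 CPM in the deepest and 0.631 CPM in the shallowest library. These limits cover counting error only. The genes around them were also largely empty. Of the 50 nearest protein-coding genes, 25 on each side, 31 (62%) were at 0 in every library, against 13.3% of all 19175 protein-coding genes in the tables. The neighbouring HSP70 gene HSPA1L was at 0, and the highest total among the 50 was 198 counts over 24 libraries. HSPA1A and HSPA1B also resemble each other closely: 72.6% of the 50-base windows of the HSPA1A transcript occur in the HSPA1B transcript, although none of those in its last 300 bases do. The listed 0 therefore says nothing of whether these cells make HSPA1A or HSPA1B RNA, and its cause was not tested. The other 8 members passed the low-count filter in every fit. HSPA2, with 3 counts over the MM1.S vehicle libraries, passed in MM1.S only through the groups where it was high, so it is left out of the counts, medians and tests of members in MM1.S and between the lines, which cover 7 members, and is given there by its counts.

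**Figure D1:**
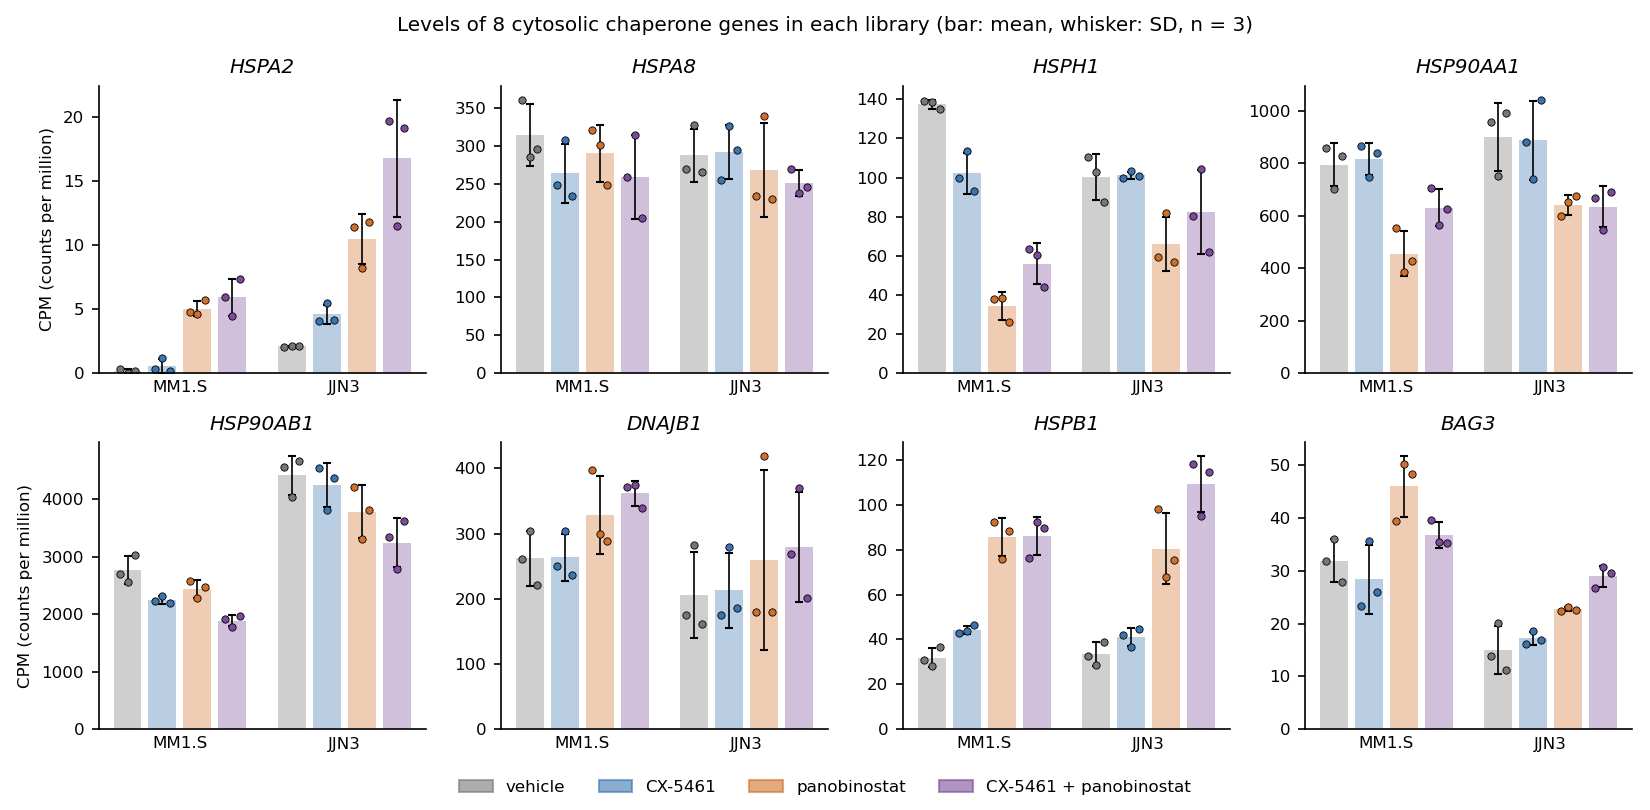
CPM of the 8 detected members in each of the 24 libraries, 1 panel per gene, with the 8 groups along the horizontal axis; points are libraries, bars the group mean and whiskers the SD (n = 3). HSPB1 sits between 68.0 and 118 CPM in all libraries that received panobinostat and between 28.1 and 46.3 CPM in all others, while HSPH1 is lowest in the MM1.S panobinostat libraries, at 26.1 to 38.5 CPM.

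In untreated cells the lines differed in 3 of the 7 members. HSP90AB1, the constitutive HSP90, was higher in JJN3, with 4557, 4027 and 4652 CPM, than in MM1.S, with 2698, 2562 and 3027 CPM. The difference was 0.64 ± 0.11 on the log2 scale (edgeR adjusted p = 1.42e-05), and every JJN3 library exceeded every MM1.S library. BAG3, which links HSP70 to selective autophagy, was lower in JJN3, with 14.0, 20.1 and 11.2 CPM against 31.8, 36.0 and 27.9 CPM, a log2 difference of -1.13 ± 0.17 (edgeR adjusted p = 1.39e-06) and again with no overlap. HSPA2, an HSP70 best known from the testis, was near the limit of detection in MM1.S, with 2, 0 and 1 counts, and had 2.05, 2.11 and 2.09 CPM in JJN3, a ratio of 12.1 with a 95% counting interval of 3.84 to 61.5. HSPH1, the HSP110 exchange factor, was lower in JJN3 by a margin that was not robust: the log2 difference was -0.49 ± 0.17 (edgeR adjusted p = 0.0136), and it missed the threshold when any of 4 of the 6 vehicle libraries was left out, namely MM1.S libraries 1 and 2 (adjusted p = 0.0655 and 0.0667) and JJN3 libraries 2 and 3 (adjusted p = 0.0537 and 0.150). Over all genes tested, 30.2% were higher and 33.5% lower in JJN3, beside 1 member higher and 2 lower of 7. HSPA8, HSP90AA1, DNAJB1 and HSPB1 were not called, with log2 differences between -0.39 and 0.14. Without the JJN3 libraries numbered 2 the members called went from 3 to 5: DNAJB1 was then lower in JJN3 (-0.61, adjusted p = 0.00176) and HSP90AA1 higher (0.33, adjusted p = 0.0368). DNAJB1 was also called with no low-count filter (adjusted p = 0.0356) and with the replicate block (adjusted p = 0.00540), and over all alternatives its adjusted p ran from 0.00176 to 0.733 and that of HSP90AA1 from 0.0368 to 0.536.

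Panobinostat alone split the family. In MM1.S, HSPB1 and BAG3 rose and HSPH1, HSP90AA1 and HSP90AB1 fell, 2 members higher and 3 lower of 7, where 36.9% of all 12030 genes tested were called higher and 32.9% lower. In JJN3, HSPA2, HSPB1 and BAG3 rose and HSPH1 and HSP90AA1 fell, 3 members higher and 2 lower of 8, where 15.0% of all 11411 genes tested were called higher and 10.9% lower. The members' median log2 fold change was -0.25 over 7 members in MM1.S and 0.09 over 8 in JJN3, beside 0.07 and 0.01 over all genes. These medians cover unlike sets, as HSPA2 is only in that of JJN3. Over the 7 members without HSPA2 the JJN3 median was -0.13, the value of HSPA8. In MM1.S most genes changed with panobinostat, so a call there sets a gene little apart from the rest.

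HSPB1, the ATP-independent small chaperone also known as HSP27, rose to a like extent in both lines. In MM1.S it went from 31.0, 28.1 and 36.8 CPM with vehicle to 92.5, 76.1 and 88.2 CPM with panobinostat. In JJN3 it went from 32.7, 28.7 and 39.0 CPM to 98.1, 68.0 and 75.7 CPM. The lowest panobinostat library lay well above the highest vehicle library in each line. The log2 fold changes were 1.28 ± 0.12 in MM1.S (edgeR adjusted p = 1.04e-09) and 1.24 ± 0.16 in JJN3 (edgeR adjusted p = 4.57e-05), which correspond to 2.43-fold and 2.37-fold. The difference between the lines was -0.02 on the log2 scale, with a 95% interval from -0.45 to 0.40, and its sign turned (0.026) without JJN3 panobinostat library 2.

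HSPA2 was higher with panobinostat in both lines, from a lower base. In JJN3 the panobinostat libraries had 11.4, 8.21 and 11.8 CPM against the 2.05 to 2.11 CPM of vehicle, a log2 fold change of 2.29 ± 0.29 (edgeR adjusted p = 3.12e-05). In MM1.S the panobinostat libraries held 24, 25 and 29 counts, or 4.78, 4.58 and 5.70 CPM, against 3 counts over the 3 vehicle libraries. Groups did not overlap in either line. The MM1.S ratio was 29.2, with a 95% counting interval of 9.62 to 144, which covers counting error only and is given with no test.

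BAG3 rose modestly. In MM1.S it had 39.5, 50.2 and 48.3 CPM with panobinostat against 27.9 to 36.0 CPM with vehicle, a log2 fold change of 0.39 ± 0.14 (edgeR adjusted p = 0.0169). In JJN3 it had 22.5, 23.1 and 22.5 CPM against 11.2 to 20.1 CPM, a log2 fold change of 0.57 ± 0.19 (edgeR adjusted p = 0.0379). The groups did not overlap, but both calls hung on single libraries. Without MM1.S vehicle library 3, panobinostat library 2 or panobinostat library 3 the adjusted p was 0.146, 0.0631 and 0.0542. In JJN3 the call was kept only without vehicle library 2, the adjusted p for the other 5 libraries left out in turn running from 0.0700 to 0.184, and it was 0.0743 when only the 2 groups compared were fitted. Over all alternatives it ran from 0.00251 to 0.146 in MM1.S and from 0.00329 to 0.184 in JJN3.

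HSPH1, the HSP110 that resets HSP70 and helps it to take apart aggregates, showed the largest fall among the members. In MM1.S it went from 139, 139 and 135 CPM with vehicle to 38.1, 38.5 and 26.1 CPM with panobinostat, a log2 fold change of -2.14 ± 0.14 (edgeR adjusted p = 1.87e-12), or 4.41-fold lower. In JJN3 it went from 111, 103 and 87.3 CPM to 59.5, 82.1 and 56.6 CPM, a log2 fold change of -0.64 ± 0.19 (edgeR adjusted p = 0.0192). The groups did not overlap in either line, but the JJN3 panobinostat library numbered 2 came close to the lowest vehicle library. The JJN3 call was lost without vehicle library 1 (adjusted p = 0.0725), panobinostat library 1 (0.0687) or panobinostat library 3 (0.0881), within a range of 6.44e-05 to 0.0881 over all alternatives.

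The tested difference between the lines was large for HSPH1. The log2 effect of panobinostat in JJN3 was higher than that in MM1.S by 1.52 ± 0.25 (edgeR adjusted p = 2.62e-05). Of all 12872 genes in that test 18.9% were called higher and 14.4% lower in JJN3 relative to MM1.S. Of the 7 members HSPH1 was the 1 called higher, and 0 were called lower.

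The stress-inducible HSP90AA1 fell in both lines. In MM1.S it went from 857, 702 and 827 CPM to 554, 387 and 426 CPM with panobinostat, a log2 fold change of -0.93 ± 0.13 (edgeR adjusted p = 1.11e-06). In JJN3 it went from 959, 751 and 989.9 CPM to 599, 651 and 675 CPM, a log2 fold change of -0.52 ± 0.14 (edgeR adjusted p = 0.0101). Every panobinostat library lay below every vehicle library of its line. The line difference of 0.43 ± 0.20 was not called (edgeR adjusted p = 0.0977). It was called without MM1.S panobinostat library 1, the highest of its group, at 0.53 (adjusted p = 0.0290), and with the replicate block, at 0.46 (adjusted p = 0.00163). Its adjusted p ran from 0.00163 to 0.432 over all alternatives.

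The constitutive HSP90AB1 fell less. In MM1.S it went from 2698, 2562 and 3027 CPM to 2579.8, 2273 and 2463 CPM, ranges that overlap, with a log2 fold change of -0.31 ± 0.09 (edgeR adjusted p = 0.00369). Scaling by library size alone left -0.18 (adjusted p = 0.0561, the highest over all alternatives, the lowest being 0.000321), since that scaling moved the median of all genes by 0.14. In JJN3 the panobinostat libraries had 4213, 3296 and 3816 CPM against 4557, 4027 and 4652 CPM. Each was below the vehicle library of the same number, although the ranges overlapped. The log2 fold change of -0.25 ± 0.13 was not called (edgeR adjusted p = 0.164) unless the replicate number was a block in the fit, which gave 0.00204 (range over all alternatives 0.00204 to 0.367). HSP90AA1, HSP90AB1 and HSPA8 all have processed pseudogene copies in the genome, and how reads that fit several places were counted is not given in the sources used here, so their counts carry that uncertainty.

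HSPA8, the constitutive HSC70, and DNAJB1, the main J-domain partner of inducible HSP70, were not called with panobinostat in either line. HSPA8 had 322, 301 and 248 CPM against 361, 285 and 296 CPM in MM1.S, a log2 fold change of -0.25 ± 0.14 (edgeR adjusted p = 0.131) with a 95% interval from -0.55 to 0.05. It was called with no low-count filter (-0.31, adjusted p = 0.00889) and with the replicate block (-0.26, adjusted p = 0.0273), within a range of 0.00889 to 0.493. DNAJB1 had 397, 299 and 289 CPM against 261, 305 and 220.5 CPM in MM1.S, a log2 fold change of 0.19 ± 0.14 (edgeR adjusted p = 0.207) with a 95% interval from -0.09 to 0.47. Its rise rested on panobinostat library 1, without which the value was -0.011, and it passed the threshold when scaled by library size alone (0.33, adjusted p = 0.0265, range 0.0265 to 0.941). In JJN3 DNAJB1 was 419 CPM in panobinostat library 2 and 180.1 CPM in each of the others, and the log2 fold change of 0.30 ± 0.38 became -0.25 without that library. The JJN3 value of HSPA8 was -0.13 ± 0.15.

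**Figure D2:**
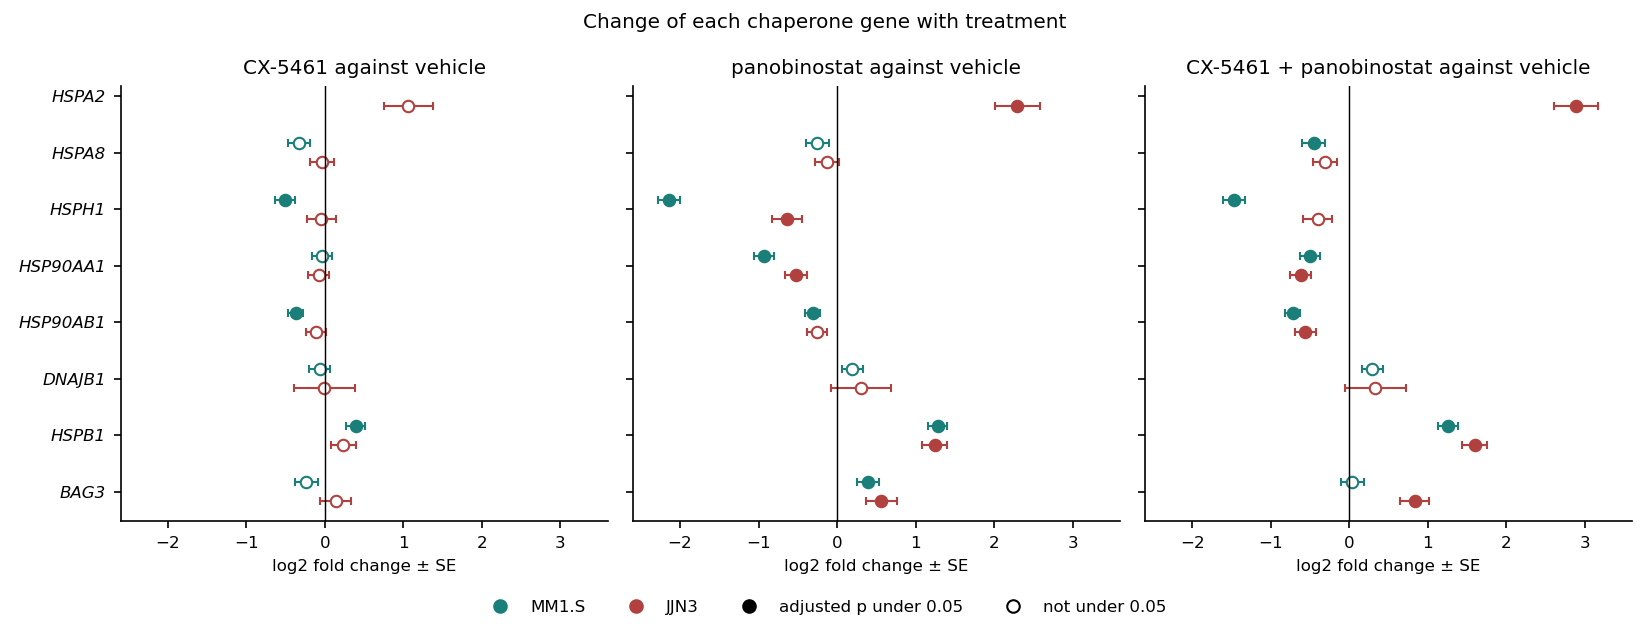
Log2 fold changes against vehicle (horizontal axis, edgeR estimate, whiskers 1 SE) of the members after CX-5461, panobinostat and both drugs, in MM1.S (7 members, HSPA2 not drawn) and JJN3 (8 members); filled points have an adjusted p under 0.05. With panobinostat HSPB1 and BAG3 lie to the right of 0 and HSPH1 and HSP90AA1 to the left in both lines, and HSPH1 is at -2.14 in MM1.S but -0.64 in JJN3.

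The summed level of the plasma cell markers moved with panobinostat in the same libraries. It was 1099 to 1367 CPM in MM1.S panobinostat libraries, against the 8514 to 8984 CPM of vehicle, and 3284 to 3929 CPM in JJN3 panobinostat libraries, against 4076 to 5085 CPM. SDC1, the plasma cell surface marker CD138, fell from 1073 to 91.1 CPM on average in MM1.S. The markers did not all move alike. In MM1.S CD38 stood at 4.91 CPM with vehicle and 4.78 CPM with panobinostat on average. In JJN3 the means of PRDM1 (45.4 to 61.0 CPM) and SLAMF7 (4.19 to 5.64 CPM) rose, while those of the other markers were lower. JCHAIN, at 2851 and 2385 CPM, made up most of the JJN3 sum. The 5 fibroblast markers summed to 0.204 to 0.321 CPM in MM1.S vehicle libraries, 9.17 to 18.5 CPM with panobinostat and 10.5 to 23.0 CPM with both drugs, while COL3A1 and LUM among them were at 0 in all MM1.S libraries. That rise was nearly all COL1A1, which went from 0.227 to 13.8 CPM on average with panobinostat. In JJN3 the fibroblast markers summed to 0 to 0.176 CPM with vehicle and 1.61 to 9.29 CPM with both drugs. The 5 epithelial markers summed to at most 21.2 CPM in any library. In MM1.S they summed to 0.158 to 1.12 CPM with vehicle and 4.78 to 6.17 CPM with both drugs. That rise was mostly KRT18, which went from 0.350 to 5.00 CPM on average, while KRT8 was at 0 in both groups. The part of these shifts in the members' values was not tested.

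CX-5461 alone led to fewer calls among the members than panobinostat, as it did over all genes. In MM1.S HSP90AB1 and HSPH1 fell and HSPB1 rose, 2 members lower and 1 higher, where 7.06% of all genes tested were called lower and 9.68% higher. The members' median log2 fold change was -0.24, beside 0.01 over all genes. HSP90AB1 had 2221, 2316 and 2193 CPM, all below the lowest vehicle library at 2562 CPM, a log2 fold change of -0.37 ± 0.09 (edgeR adjusted p = 0.00525). HSPH1 had 99.8, 114 and 92.9 CPM, all below the vehicle libraries at 135 to 139 CPM, a log2 fold change of -0.51 ± 0.13 (edgeR adjusted p = 0.00751). Both calls held under every alternative run, with adjusted p up to 0.0429 and 0.0496. HSPB1 had 42.7, 43.7 and 46.3 CPM, all above the vehicle libraries, a log2 fold change of 0.39 ± 0.12 (edgeR adjusted p = 0.0300). That call was lost when any library but vehicle library 3 was left out, the adjusted p of those 5 fits running from 0.0541 to 0.125.

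The other members were not called with CX-5461 in MM1.S. HSPA8 had 248, 309 and 235 CPM, overlapping vehicle, with a log2 fold change of -0.33 ± 0.14 (edgeR adjusted p = 0.129). It was called with no low-count filter (-0.34, adjusted p = 0.0160), with the replicate block (adjusted p = 0.0218) and with only these groups fitted (adjusted p = 0.0325). Each of these gave 4 members called in place of 3, and the adjusted p of HSPA8 ran from 0.0160 to 0.412. HSP90AA1 had 864, 747 and 839.7 CPM, a log2 fold change of -0.03 ± 0.13 with a 95% interval from -0.30 to 0.23. HSPA2 had 11 counts over the 3 libraries against 3 with vehicle, 8 of them in library 2. DNAJB1 and BAG3 stood at -0.07 ± 0.14 and -0.24 ± 0.15. In the same libraries the plasma cell markers summed to 6977 to 7767 CPM, below all MM1.S vehicle libraries. The 4 myeloid markers summed to 6.57 to 8.36 CPM, against 0.475 to 0.611 CPM with vehicle, with ITGAM going from 0 to 7.37 CPM on average and LYZ at 0. The part of these shifts in the members' values was not tested.

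In JJN3 edgeR called 0 of the 8 members with CX-5461, as did DESeq2, limma-voom and the fit with the replicate block, and 1 of the 8, HSPA2, had an unadjusted p under 0.05. Over all genes edgeR called 0% higher and 0% lower, with 633 genes at an unadjusted p under 0.05, and the fit with the replicate block called 157. HSPA2 had 4.07, 5.46 and 4.16 CPM, each above the 2.11 CPM of the highest vehicle library, a log2 fold change of 1.06 ± 0.31 (edgeR adjusted p = 0.592). HSPB1 had 42.1, 36.5 and 44.6 CPM, each above the vehicle library of the same number. Its log2 fold change was 0.24 ± 0.16 (edgeR adjusted p = 0.962). HSPH1, at 99.6, 103 and 101 CPM, and HSP90AB1, at 4546, 3815 and 4358 CPM, overlapped vehicle, with 95% intervals from -0.44 to 0.34 and from -0.39 to 0.16. None of the 7 members differed between the lines in its response to CX-5461 by edgeR, with 0 at an unadjusted p under 0.05 and 0 by DESeq2, where 0.287% of all genes were called higher and 1.03% lower. The HSPH1 difference was 0.46 ± 0.24 (edgeR adjusted p = 0.499), with a 95% interval from -0.03 to 0.96, so a difference was not detectable at this number of libraries.

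With both drugs members again moved in both directions. Against vehicle in MM1.S, HSPB1 rose and HSPH1, HSP90AB1, HSP90AA1 and HSPA8 fell, 1 member higher and 4 lower of 7, where 37.0% of all genes were called higher and 33.2% lower. In JJN3 HSPA2, HSPB1 and BAG3 rose and HSP90AA1 and HSP90AB1 fell, where 21.0% were called higher and 18.2% lower. With the replicate block all 8 members were called in JJN3 in place of 5, and 6105 of all 11411 genes in place of 4472. The members' median log2 fold change was -0.45 over 7 members in MM1.S and 0.01 over 8 in JJN3, beside 0.06 and 0.00 over all genes. Over the 7 members without HSPA2 the JJN3 median was -0.31, the value of HSPA8. Against CX-5461 alone the combination raised 2 members and lowered 3 of 7 in MM1.S, where 35.9% of genes were called higher and 33.9% lower. In JJN3 it raised 3 and lowered 2, where 18.8% and 15.6% were. With the replicate block all 8 members were called there, and 5595 of all genes in place of 3923. In that JJN3 comparison HSPH1, at -0.35 ± 0.19 (edgeR adjusted p = 0.154), was called without the libraries numbered 2 (-0.57, adjusted p = 0.0225), without combination library 2 alone (-0.58, adjusted p = 0.0244) and with no low-count filter (adjusted p = 0.0404), within a range of 0.00675 to 0.517. DNAJB1 was among those raised over CX-5461 in MM1.S, by 0.36 ± 0.13 (edgeR adjusted p = 0.0209). That call was lost without CX-5461 library 1 (adjusted p = 0.0981) or 3 (0.133) and without combination library 1 (0.0883) or 2 (0.0682), within a range of 0.00139 to 0.133.

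HSPH1 fell less with both drugs than with panobinostat alone in MM1.S. The combination libraries had 63.6, 60.2 and 44.0 CPM, all above the 26.1 to 38.5 CPM of panobinostat alone and all below CX-5461 alone at 92.9 to 114 CPM. Against vehicle the log2 fold change was -1.47 ± 0.14 (edgeR adjusted p = 7.71e-10), and against panobinostat alone it was 0.67 ± 0.15 (edgeR adjusted p = 0.00867). The latter was lost without panobinostat library 3 (0.50, adjusted p = 0.0870), without combination library 1 (0.56, adjusted p = 0.0794) or when only these 2 groups were fitted (adjusted p = 0.0594), within a range of 2.54e-05 to 0.0870. It was the 1 member called higher and HSP90AB1 the 1 called lower in this comparison, where 2.44% of all genes were called higher and 1.65% lower.

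The departure of HSPH1 from additivity was firmer. Each single drug lowered it, and the sum of their log2 fold changes was -2.64, while the combination gave -1.47. The departure of 1.18 ± 0.19 (edgeR adjusted p = 0.000429) held under every alternative run, with adjusted p of at most 0.00282. HSPH1 was the 1 member of 7 called, where 1.87% of all genes departed upward and 3.65% downward. HSP90AA1 stood on the same side, with 704, 563 and 625 CPM under both drugs, each above the highest panobinostat library at 554 CPM. Against panobinostat alone its 0.43 ± 0.13 was not called (edgeR adjusted p = 0.0619). It was called by DESeq2 (adjusted p = 0.0430), with library size scaling (0.0218), with no low-count filter (0.00272), with the replicate block (0.000926), without panobinostat library 1 (0.62, adjusted p = 0.000719) and without combination library 2 (0.51, adjusted p = 0.0359), within a range of 0.000719 to 0.284. Its departure of 0.46 ± 0.18 was not called (edgeR adjusted p = 0.152) except without panobinostat library 1 (0.65, adjusted p = 0.00523), with no low-count filter (adjusted p = 0.0345) or with the replicate block, within a range of 0.00523 to 0.362. HSPB1 departed the other way, at -0.42 ± 0.17 (edgeR adjusted p = 0.160), as the combination's 1.26 lay under the sum of 1.68.

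HSP90AB1 was lower with both drugs than with either alone in MM1.S. The combination libraries had 1910.2, 1774 and 1964 CPM, all below the lowest CX-5461 library at 2193 CPM and the lowest panobinostat library at 2273 CPM. The log2 fold changes were -0.72 ± 0.09 against vehicle (edgeR adjusted p = 1.39e-07), -0.41 ± 0.09 against panobinostat (edgeR adjusted p = 0.00991) and -0.35 ± 0.09 against CX-5461 (edgeR adjusted p = 0.00151). Its 2 single-drug values summed to -0.69, and the departure was -0.04 ± 0.13, with a 95% interval from -0.30 to 0.23. HSPB1, at 76.2, 92.3 and 89.9 CPM, differed from panobinostat alone by -0.03 ± 0.11, with a 95% interval from -0.26 to 0.21. HSPA2 had 30, 25 and 38 counts, a ratio to vehicle of 34.0 with a 95% counting interval of 11.3 to 168.

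BAG3, DNAJB1 and HSPA8 gave values in MM1.S that turned on the processing. BAG3 had 39.7, 35.4 and 35.3 CPM with both drugs, near the vehicle libraries, a log2 fold change of 0.04 ± 0.15 (edgeR adjusted p = 0.819). DNAJB1 had 372, 375 and 340.0 CPM, all above the highest vehicle library at 305 CPM, a log2 fold change of 0.30 ± 0.14 that missed the threshold (edgeR adjusted p = 0.0562). It was called without vehicle library 2 (0.38, adjusted p = 0.0222), by limma-voom (adjusted p = 0.0462), with the replicate block (adjusted p = 0.0139), with only these groups fitted (adjusted p = 0.0137) and with library size scaling (0.47, adjusted p = 0.00240), within a range of 0.00240 to 0.393. HSPA8 had 259, 315 and 205 CPM, overlapping vehicle, a log2 fold change of -0.45 ± 0.15 (edgeR adjusted p = 0.00949) that was lost without vehicle library 1 (-0.33, adjusted p = 0.0580) and with library size scaling (-0.28, adjusted p = 0.0986). Over all alternatives the adjusted p of HSPA8 ran from 5.05e-06 to 0.0986.

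**Figure D3:**
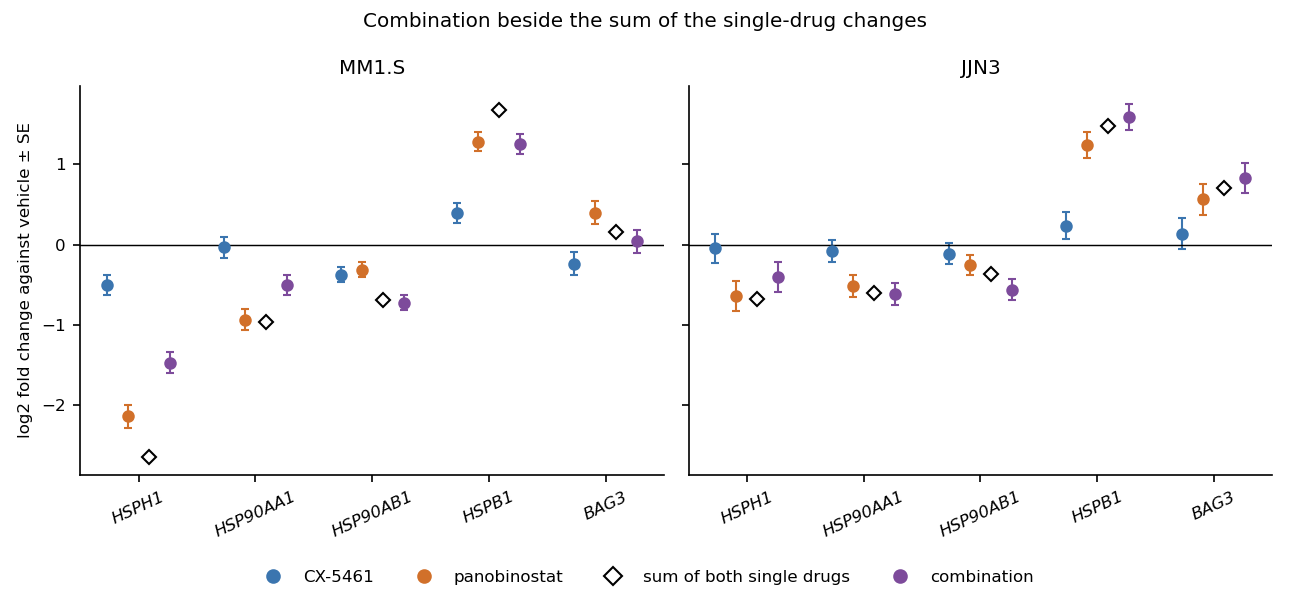
Log2 fold changes against vehicle (vertical axis, edgeR estimate, whiskers 1 SE) of HSPH1, HSP90AA1, HSP90AB1, HSPB1 and BAG3 after each single drug and both drugs in MM1.S and JJN3, with a diamond at the sum of the single-drug values. For HSPH1 in MM1.S the combination, at -1.47, lies well above the sum at -2.64, whereas for HSP90AB1 the combination at -0.72 lies at the sum of -0.69.

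In JJN3 the combination gave the highest mean levels of HSPA2, HSPB1 and BAG3 among the groups of that line. For HSPA2 and HSPB1 its libraries overlapped those of panobinostat alone, and edgeR called 0 of the 8 members between these groups. HSPB1 had 118, 95.2 and 115 CPM, a log2 fold change against vehicle of 1.59 ± 0.16 (edgeR adjusted p = 1.31e-06). HSPA2 had 19.7, 11.5 and 19.1 CPM, a log2 fold change of 2.89 ± 0.28 (edgeR adjusted p = 7.74e-07). BAG3 had 26.8, 30.7 and 29.5 CPM, all above the panobinostat libraries, a log2 fold change of 0.83 ± 0.19 (edgeR adjusted p = 0.00210) that held under every alternative run. None of these libraries overlapped vehicle.

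The HSP90 genes of JJN3 fell with both drugs. HSP90AA1 had 667, 545 and 690.1 CPM, a log2 fold change of -0.62 ± 0.14 (edgeR adjusted p = 0.00176), close to the value with panobinostat alone. HSP90AB1 had 3333, 2775 and 3615 CPM, all below the vehicle libraries, a log2 fold change of -0.56 ± 0.13 (edgeR adjusted p = 0.00258). HSPH1 had 80.3, 104 and 61.7 CPM, which overlapped vehicle, and its log2 fold change of -0.40 ± 0.19 was not called (edgeR adjusted p = 0.0963). It was called without the JJN3 libraries numbered 2 (-0.62, adjusted p = 0.0127), with no low-count filter (adjusted p = 0.0178), without combination library 2 alone (-0.62, adjusted p = 0.0144) and with the replicate block (adjusted p = 0.00289), within a range of 0.00289 to 0.376. The block also called HSPA8 (main value -0.31 ± 0.15, adjusted p = 0.121, with the block 0.0157, range 0.0157 to 0.326) and DNAJB1 (main value 0.33 ± 0.38, adjusted p = 0.528, with the block 0.0128, range 0.0128 to 0.917).

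Adding CX-5461 to panobinostat changed 0 of the 8 JJN3 members by edgeR, with 3 at an unadjusted p under 0.05 and 0 by DESeq2, where 0.184% of all genes were called higher and 0.719% lower. With the replicate block those 3 were called, as were 1401 of all genes in place of 103. With the block HSP90AB1 fell (-0.30, adjusted p = 0.00222, range 0.00222 to 0.569), and HSPB1 (0.36, adjusted p = 0.0200, range 0.0200 to 0.710) and HSPA2 (0.59, adjusted p = 0.0424, range 0.0424 to 0.634) rose. HSP90AB1 was lower and HSPB1 and HSPA2 higher in each combination library than in the panobinostat library of the same number. No member departed from additivity in JJN3 by edgeR or DESeq2, with 0 members at an unadjusted p under 0.05 and 0% of all genes called in either direction. For HSPH1 the departure was 0.28 ± 0.26, with a 95% interval from -0.27 to 0.84. Whether its departure differed between the lines was not tested.

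Under both drugs 2 of 7 members were called higher in JJN3 relative to MM1.S and 0 lower, where 18.8% of all genes were higher and 14.0% lower. HSPH1 differed by 1.09 ± 0.25 (edgeR adjusted p = 0.00111), as it fell less in JJN3, a call that held under every alternative run. BAG3 differed by 0.81 ± 0.24 (edgeR adjusted p = 0.00866), with 0.83 in JJN3 and 0.04 in MM1.S. The BAG3 difference was lost without MM1.S vehicle library 2 (0.63, adjusted p = 0.0594) or JJN3 vehicle library 3 (0.53, adjusted p = 0.0932), within a range of 0.000976 to 0.0932. The HSPB1 difference was 0.35 ± 0.21, with a 95% interval from -0.07 to 0.78.

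The order of the group means differed from gene to gene. HSPB1 ran from MM1.S vehicle, at 31.9 ± 4.42 CPM (SD, n = 3), to JJN3 with both drugs, at 109 ± 12.4 CPM, and neighbours in the order overlapped except below the JJN3 panobinostat group and below the JJN3 combination. HSPH1 ran from MM1.S with panobinostat, at 34.2 ± 7.01 CPM, to MM1.S vehicle, at 138 ± 2.31 CPM, and only the lowest and the highest of its groups stood clear of their neighbours. HSPA8 ran from 251 ± 16.8 CPM in the JJN3 combination to 314 ± 41.1 CPM in MM1.S vehicle, and DNAJB1 from 206 ± 66.2 CPM in JJN3 vehicle to 362 ± 19.2 CPM in the MM1.S combination. For HSPA8 and DNAJB1 every group overlapped the next.

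The replicate number left a mark on the members in JJN3. The library numbered 2 was the highest of its group for DNAJB1 and BAG3 in 4 of 4 groups and for HSPA8 and HSPH1 in 3 of 4. It was the lowest for HSP90AB1 and HSPB1 in 4 of 4 groups and for HSP90AA1 in 3 of 4. For DNAJB1 it had 282, 279, 419 and 369.5 CPM in the vehicle, CX-5461, panobinostat and combination groups, while the other JJN3 libraries lay between 161 and 268 CPM. These numbers come from the labels, which do not say what a number marks. Fits with the replicate block, or without the libraries numbered 2, are given beside the results they change. In MM1.S the library numbered 2 was the lowest for HSP90AA1 in 4 of 4 groups and the library numbered 3 the lowest for HSPH1 and DNAJB1 in 4 of 4.

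**Figure D4:**
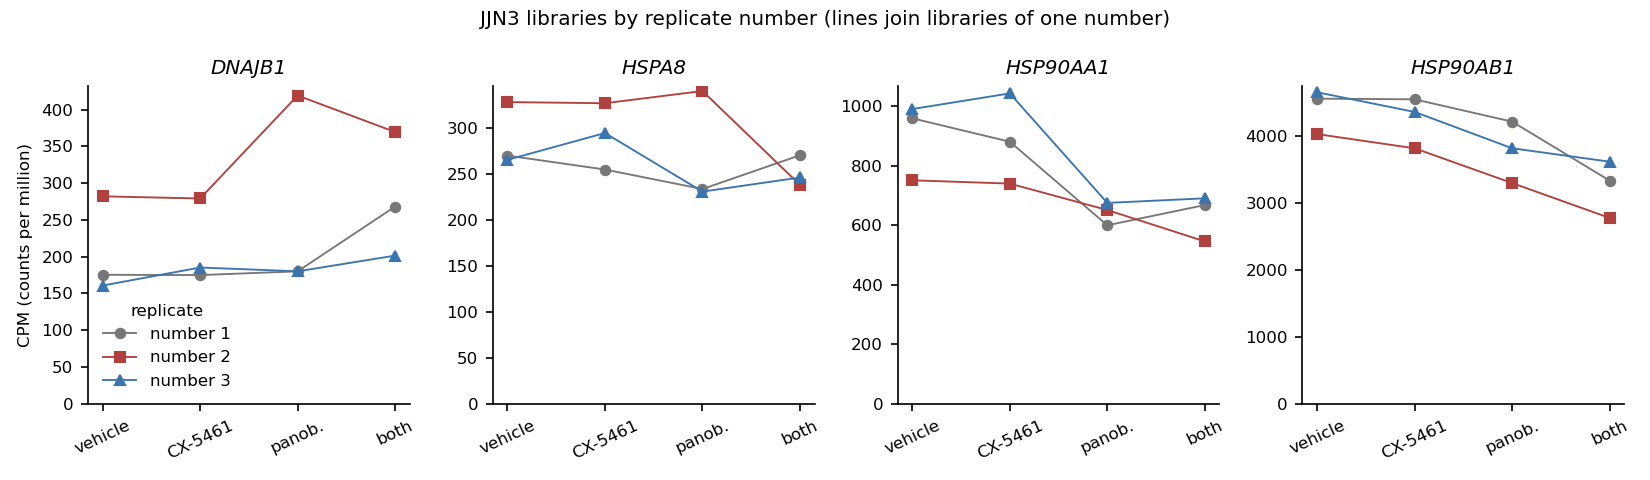
CPM of DNAJB1, HSPA8, HSP90AA1 and HSP90AB1 in the 12 JJN3 libraries, by treatment group along the horizontal axis, with libraries of the same replicate number sharing a symbol. The library numbered 2 is the highest for DNAJB1, at 279 to 419 CPM, and the lowest for HSP90AB1, at 2775 to 4027 CPM, in all 4 groups.

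The chaperone network around the members was followed in 10 lists, of which 59 genes passed the low-count filter in each line's fit. With panobinostat 16 of the 59 rose and 30 fell in MM1.S, where 36.9% of all genes tested were called higher and 32.9% lower. In JJN3 3 rose and 20 fell, where 15.0% were called higher and 10.9% lower. The lists were chosen with earlier results of these data known, so their counts are a description. Of the 8 subunits of TRiC, the chaperonin that folds actin and tubulin, 6 fell in MM1.S and 4 in JJN3, and 0 rose, with CCT5 at -1.48 ± 0.11 and -0.54 ± 0.11. All 6 tested mitochondrial chaperone genes fell in MM1.S and 4 in JJN3, with median log2 fold changes of -1.14 and -0.64. Among them HSPE1, the co-chaperonin of HSP60, stood at -1.83 ± 0.11 in MM1.S and -0.84 ± 0.14 in JJN3, and HSPD1, HSP60 itself, at -0.97 ± 0.10 and -0.67 ± 0.14. Of the 5 tested prefoldin subunits, which hand unfolded actin and tubulin to TRiC, 3 fell in each line and 2 rose in MM1.S.

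The partners of HSP90 moved in both directions, as all genes did. Of 12 HSP90 co-chaperones 4 rose and 4 fell with panobinostat in MM1.S, with a median log2 fold change of 0.07. That is near the 36.9% higher and 32.9% lower of all genes there. In JJN3 1 rose and 3 fell, beside 15.0% and 10.9% of all genes. CDC37, which brings kinases to HSP90, rose by 1.29 ± 0.10 in MM1.S and SUGT1 by 0.69 ± 0.10. AHSA1, which activates the HSP90 ATPase, went from 152 to 54.5 CPM, a log2 fold change of -1.62 ± 0.10, and the client-holding PTGES3 (p23) went from 561 to 219 CPM, at -1.49 ± 0.09. AHSA1 was lower also with CX-5461 alone in MM1.S, at -0.75 ± 0.09, as were PTGES3 at -0.61 ± 0.09 and STIP1, which joins HSP70 to HSP90, at -0.48 ± 0.11. Like HSPH1, AHSA1 and STIP1 departed upward from additivity in MM1.S, by 0.95 ± 0.14 and 0.64 ± 0.15 (edgeR adjusted p = 8.64e-05 and 0.0113). Of the 59 listed genes 6 departed upward and 1 downward, where 1.87% of all genes departed upward and 3.65% downward. As the lists were chosen with earlier results of these data known, this count is a description.

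The partners of HSP70 showed both directions too, and all genes did so with panobinostat. Over all genes tested 36.9% were called higher and 32.9% lower in MM1.S, and 15.0% and 10.9% in JJN3. Of 9 J-domain genes 2 rose and 4 fell in MM1.S with panobinostat, among them DNAJB5 at 3.01 ± 0.32 and DNAJA1, a main partner of HSPA8, at -0.47 ± 0.13, and 1 rose and 3 fell in JJN3. Of 6 exchange and triage genes 2 rose and 3 fell in MM1.S, with BAG4 at 1.13 ± 0.21 and the exchange factor HSPBP1 at -1.45 ± 0.18, and 0 rose and 1, BAG1, fell in JJN3, at -0.72 ± 0.14. Of 3 other tested HSP70 and HSP110 genes 2 fell in MM1.S and 1 in JJN3, and the ribosome-bound HSPA14 stood at -0.74 ± 0.12 and -0.64 ± 0.13. HSPA6, an HSP70 that most cells express only under strong stress, had 14 counts over all 24 libraries. None of the 4 other small heat shock genes in the tables passed the low-count filter.

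The regulators of the response were a mixed group. Of 6 tested heat shock factors and regulators 3 rose and 2 fell in MM1.S with panobinostat, where 36.9% of all genes were called higher and 32.9% lower. In JJN3 0 rose and 1 fell, where 15.0% were called higher and 10.9% lower. HSF1, the main heat shock factor, went from 37.4 to 25.7 CPM in MM1.S, at -0.68 ± 0.13, while HSF2 stood at 0.71 ± 0.10 and the deacetylase HDAC6 at 0.87 ± 0.12. Tested between the lines, the effect in JJN3 was higher for HSF1 by 0.93 ± 0.19, and lower for HSF2 and HDAC6, at -0.62 ± 0.16 and -0.72 ± 0.20. Of the 4 polyubiquitin and protein stress genes 3 rose in MM1.S and 1 in JJN3. SQSTM1, the autophagy receptor p62, went from 342 to 3036 CPM in MM1.S, at 3.02 ± 0.19, and its effect in JJN3 was lower by -3.37 ± 0.34.

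The genes whose levels ran most like each member were found over the 24 libraries after the mean of each line was taken off, by Pearson correlation, which is given as a description. For HSPH1 these were SRPRB (0.937), ALG5 (0.934) and PGAM5 (0.930). For HSPB1 they were EVI5L (0.970), TUBB3 (0.970) and RCAN1 (0.968), and for HSPA2 ENPP2 (0.970), MAP2 (0.968) and TRNP1 (0.966). HSP90AA1 ran most like GADD45GIP1 (0.973), and HSP90AB1 most like HDDC2 (0.878). BAG3 ran most like CPEB4 (0.901), HSPA8 most like DCUN1D5 (0.820) and DNAJB1 most like EHD4 (0.787). The libraries share treatment groups and depth, and most genes moved with panobinostat, so high values are common.

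**Figure D5:**
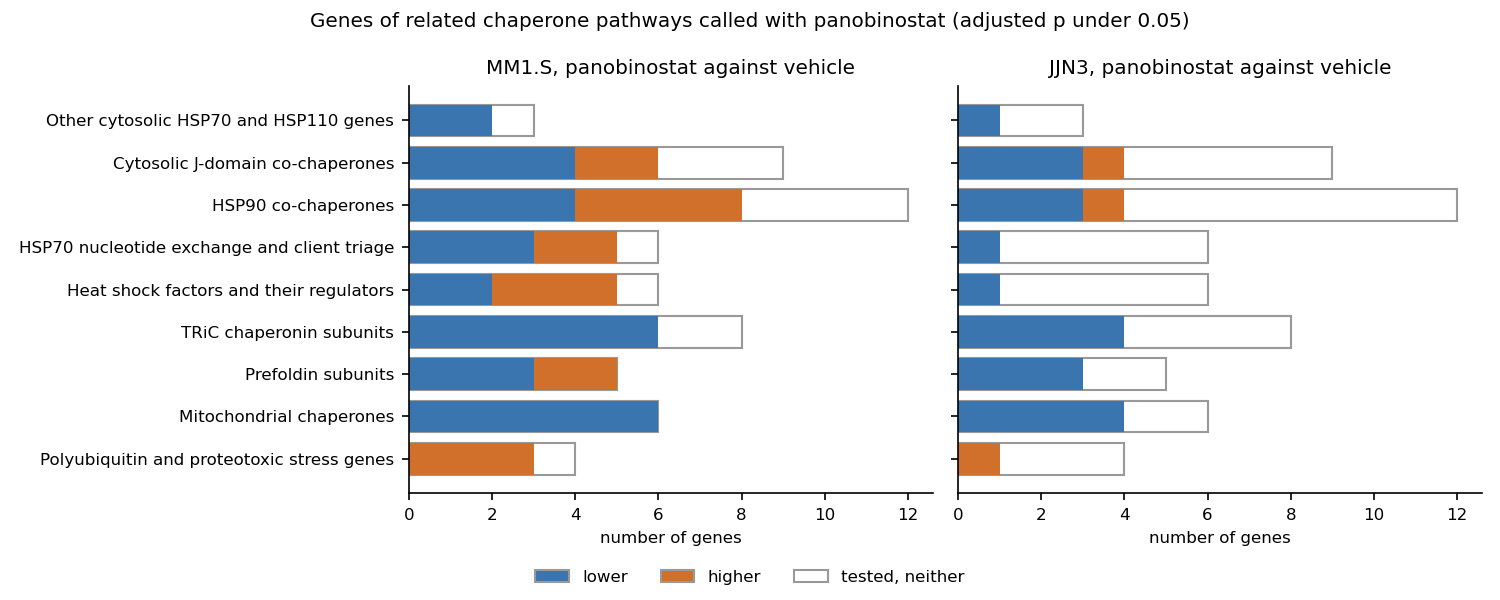
Number of genes called lower (left), higher (right) and tested in each of the lists of chaperones, co-chaperones and regulators after panobinostat, for MM1.S and JJN3, with the number of genes on the horizontal axis. The 6 tested mitochondrial chaperones are all called lower in MM1.S and 4 of them in JJN3. The 12 HSP90 co-chaperones are split in MM1.S, with 4 higher and 4 lower, near the shares called over all genes.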

How the data were processed

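The libraries were polyA-selected 3′ RNA-seq, and the labels also name a TruSeq kit. The deposited tables hold raw counts per Entrez gene, which the authors made with HISAT2 2.2.1 and featureCounts 2.0.1 on hg19 (GRCh37), per the submitters' processing notes, which also name limma 3.50.0. The sources used here give neither strand, annotation nor the handling of multi-mapping reads. A check of the lines' labelled status at 1 gene is not reported here. Symbols were matched for 27745 identifiers, and 650 had none.

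The members and all lists were chosen with earlier results of these data known. CPM were computed from the deposited counts. edgeR 4.0.16 in R 4.3.3 (TMM, filterByExpr, robust quasi-likelihood test, two-sided) was fitted per line over all 4 groups, and over 24 libraries for differences between lines, with Benjamini-Hochberg adjustment over all genes tested. The script was tested on simulated data. Departure from additivity is the combination's log2 fold change minus the sum of those of the single drugs. DESeq2 1.42.0, limma-voom from limma 3.58.1, other scalings, no low-count filter and leaving out each library were alternatives. In JJN3 libraries of the same number deviated together, with correlations of 0.201 to 0.485 in all 3 pairs of every comparison, so the replicate block is given beside the results it changes. On the labels of JJN3 CX-5461 libraries 2 and 3 the treatment field spells the drug's number differently, and titles and protocols were followed. All 10 members are named. HSPA2 was left out of member counts in MM1.S and between the lines, as decided after its counts were seen. From each list the text names at most the 2 called genes with the largest rise and the 2 with the largest fall per line, a short set fixed for every comparison (HSF1, HSF2, HDAC6, STIP1, AHSA1, DNAJA1, HSPD1, HSPE1, SQSTM1 among them), and the genes most correlated with a member.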

Additional observations from a re-analysis of the deposited data

Results flagged for a closer look

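The effect of panobinostat on HSPH1 differed between the lines, the log2 fold change in JJN3 being higher than in MM1.S by 1.52 (edgeR adjusted p = 2.62e-05). Under both drugs the HSPH1 difference was 1.09 (edgeR adjusted p = 0.00111). The effect of both drugs on BAG3 also differed, by 0.81 (edgeR adjusted p = 0.00866). That BAG3 call was lost without MM1.S vehicle library 2 (edgeR adjusted p = 0.0594) or JJN3 vehicle library 3 (edgeR adjusted p = 0.0932).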

How the results depend on the processing

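DESeq2, limma-voom, RLE size factors, library size scaling and leaving out the 10 most abundant genes kept every count of called members within 1.5 times its value. Of 64 member fold changes, 533 values under alternatives other than leaving out 1 library included 493 of the same direction and call, 4 that lost and 35 that gained the call, and 1 that turned. The 438 values with 1 library left out included 395 of the same direction and call, 29 that lost and 7 that gained it, and 7 that turned. The turn in the former was BAG3 under both drugs in MM1.S (0.04), at -0.020 with no low-count filter, and with 1 library left out it ran from -0.098 (without vehicle replicate 3) to 0.098, being -0.054 without combination replicate 1. With panobinostat and 1 library left out, DNAJB1 ran from -0.011 to 0.29 in MM1.S and from -0.25 to 0.57 in JJN3, and the HSPB1 line difference from -0.22 to 0.026. Between vehicle groups HSPA8 ran from -0.20 to 0.0078 and HSPB1 from -0.012 to 0.20. The replicate block raised the members called in JJN3 from 5 to 8 under both drugs against vehicle, from 5 to 8 against CX-5461 and from 0 to 3 against panobinostat, and beside HSP90AB1 with panobinostat changed no other JJN3 call. Over all genes the calls under both drugs rose too, from 4472 to 6105 against vehicle, from 3923 to 5595 against CX-5461 and from 103 to 1401 against panobinostat. In MM1.S, where libraries share only a number (pair correlations from -0.0474 to 0.290), the block called HSPA8 with CX-5461 and with panobinostat, DNAJB1 under both drugs, and HSP90AA1 for the combination against panobinostat and in the departure, where 2 members were called in place of 1. No filter also gave 2 there. Fitting only the compared groups left 1 of 2 members for the combination against panobinostat in MM1.S. Leaving out 1 library at a time gave 1 to 3 members called for that comparison, 1 to 2 for the MM1.S departure, 3 to 5 for panobinostat in JJN3, and 1 to 2 for the line differences with panobinostat and with both drugs. In the fits of both lines the block added calls for HSP90AA1 with panobinostat, where 2 members were called in place of 1, and DNAJB1 between vehicle groups. There 3 members called became 5 without the JJN3 libraries numbered 2. A sum of HSPA1A and HSPA1B gave no value, both being at 0.

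Counts over all genes moved by over 1.5 times as follows. For CX-5461 in JJN3, 0 genes became 157 with the block, 31 with no filter, 18 with DESeq2 and up to 2 with a library left out. For the combination against panobinostat in JJN3, 103 became 1401 with the block, 255 with DESeq2, 439 with no filter, 68 without the libraries numbered 2, and 0 to 105 with 1 library left out. For panobinostat in JJN3, 2963 became 4786 with the block and 1956 to 2952 with a library left out. The JJN3 departure went from 0 to 21 with DESeq2, 46 with no filter and 105 with the block, and to at most 1 with a library left out. The line difference with CX-5461 went from 170 to 583 with the block, 310 with no filter and 106 to 244 with a library left out. In MM1.S the combination against panobinostat went from 491 to 925 with the block, 246 with only the groups compared and 175 to 1182 with a library left out, and the departure from 664 to 1023 with the block and 415 to 1049. CX-5461 in MM1.S went from 2014 to 1328 to 1756 with a library left out. The causes of these shifts were not tested. Having 3 libraries a group limits what could be seen for small changes, and counts limit HSPA2 in MM1.S.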

Other observations

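The ratio of HSP90AA1 to HSP90AB1 counts within a library, looked at after the values were seen, was 0.273 to 0.317 in MM1.S vehicle libraries, 0.322 to 0.389 with CX-5461, 0.170 to 0.215 with panobinostat and 0.317 to 0.369 with both drugs. The CX-5461 and combination libraries had like ratios, and those with panobinostat alone lay below all others of the line. In JJN3 the ratio ran from 0.142 to 0.239 over the 12 libraries. The 10 members took 0.434% of all counts in MM1.S vehicle libraries on average and 0.332% with both drugs, and 0.596% and 0.464% in JJN3. HSP90AB1 alone made up 63.7% and 56.7% of the member counts in these MM1.S groups and 74.0% and 69.6% in those of JJN3. The summed share therefore mostly follows HSP90AB1 and not the members in general. These values are a description with no test.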
